A study of Mus musculus with 6 samples.

Results

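The collagen chains and the genes that modify, fold, process and cross-link them were described in pancreatic tumour cells of mice with and without Msi1, the gene of the RNA-binding protein Musashi-1. The set was a fixed list of 36 symbols, of which 35 were measured: 7 fibrillar chains, 8 chains of basement membrane collagens, 12 other chains, and 8 of 9 collagen-modifying genes. A gene took its values from the brightest probe set, by mean over the 6 arrays, among those annotated to a single symbol, and the array measured 18193 genes by this rule. Loxl2, the ninth modifying gene, was not analysed because both of its probe sets (n = 2) are also annotated to another gene. Total RNA of 3 wild-type and 3 Msi1 -/- samples, 1 array each, was hybridised to mouse expression arrays.

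All 6 samples were of C57BL/6 mice aged 11 weeks, and the labels give every one of them, controls included, the same tumour alleles: KeasG12D/+ (spelled so in the labels), p53f/f and ptf1a-Cre. Within the pancreas Ptf1a is active in the epithelial lineage, where such a Cre acts; stromal cells, which make most collagen, lie outside it. The labels do not say whether Msi1 was absent from every cell of the animal. The 3 Msi1 probe sets were dim in both groups and overlapped, with differences from -0.29 to 0.09 on the log2 scale, and so did not check the genotype labels. Nothing in the labels says whether the 3 samples of a group came from separate animals. Wild-type replicate 3 had Xist at 6226 and Eif2s3y at 88.2, the pattern of a female, while the other wild-type arrays had Xist at 376 and 387 and Eif2s3y at 944 and 791, the pattern of a male, so the wild-type group held more than 1 animal. For the other arrays of a group, p-values measure only the spread between these samples, which may be technical.

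Collagens are proteins of 3 chains wound into a triple helix. Fibrillar collagens (types I, III, V and XI) form the fibres of connective tissue, type IV forms the sheet-like network of basement membranes, and other types link fibrils, anchor epithelia or build short-chain networks. In the endoplasmic reticulum lysyl hydroxylases (Plod genes) modify the chains and the chaperone HSP47, encoded by Serpinh1, holds the helix. Outside the cell, Pcolce enhances the removal of the propeptide and lysyl oxidases (Lox, Loxl) cross-link the fibres. Pancreatic tumours are known for a dense collagen-rich stroma made largely by fibroblasts and stellate cells.

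The values are linear intensities, and every difference below is Msi1-null minus wild-type on the scale log2(intensity + 1). The array medians lay between 159.2 and 164.31. The background of an array was taken as the 95th percentile of 81 probe sets of olfactory, vomeronasal and trace amine receptor genes, and lay between 162.87 and 191.42, the highest in Msi1-null replicate 1. The ratio of the 3' to the 5' control probe sets for Gapdh ran from 1.38 in Msi1-null replicate 1 to 1.86 in wild-type replicate 2. The number of arrays, 3 per group, limits the precision of every value.

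No collagen chain or modifying gene passed the test between genotypes. The limma test with Benjamini-Hochberg adjustment over all 45037 probe sets called 0 of them (0% of all probe sets), at a smallest adjusted p of 0.9997, and 1355 had an unadjusted p under 0.05. At that unadjusted level 1 of the 35 genes was higher in the Msi1-null arrays, Serpinh1, where 1.61% of all genes were, and 1 was lower, Col12a1, where 1.85% of all genes were. The same pair were the only members whose groups did not overlap in either direction, 2 of 35, where 8.28% of all genes had groups without overlap. These shares lie near those of all genes. Positive differences were measured for 26 of the 35 genes and negative ones for 9, with a median of 0.08 (range -0.51 to 0.74). Over all genes, 9143 were positive, 9050 negative and the median was 0.0006. In bulk RNA of this kind, fewer cells of a type and less RNA per cell cannot be told apart.

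The count of positive differences depended on single arrays. Without Msi1-null replicate 1, 15 of the 35 genes were higher in the Msi1-null group and 20 lower, and the median was -0.01. Without Msi1-null replicate 2, 30 were higher and 5 lower, and the median was 0.25. Without wild-type replicate 1 the counts were 21 and 14.

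**Figure D1:**
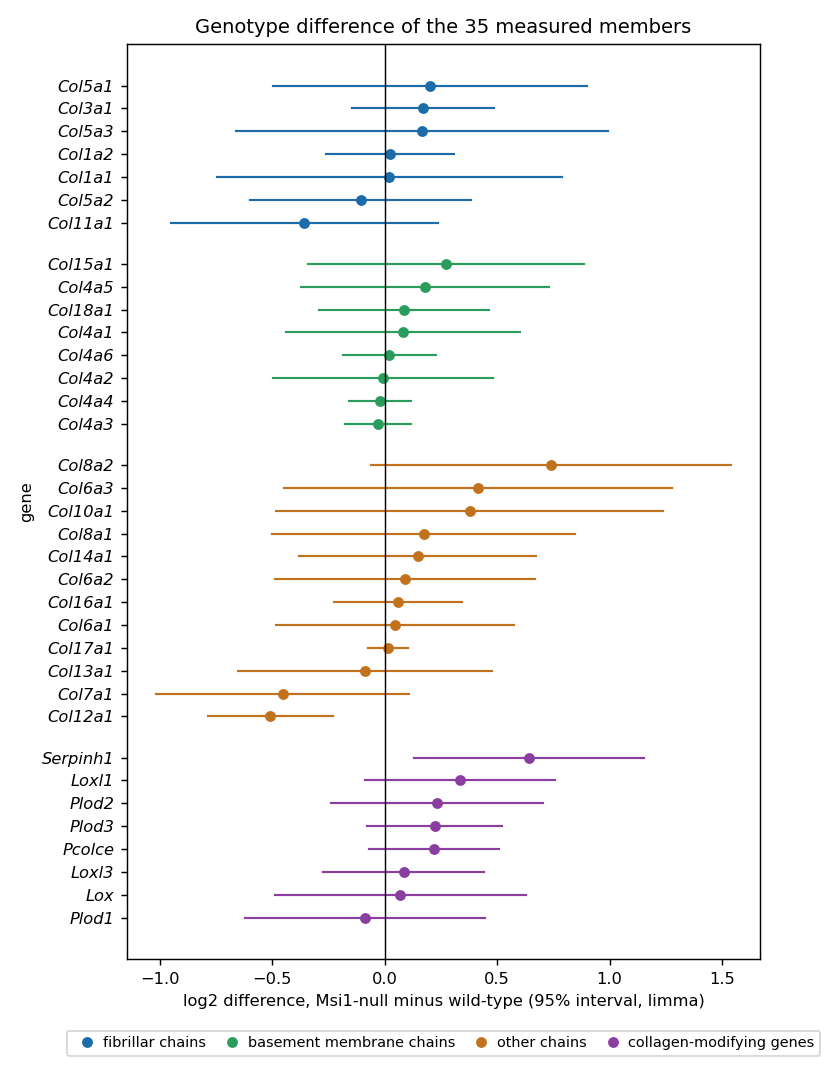
Difference of each of the 35 measured genes, Msi1-null minus wild-type, in log2(intensity + 1), ordered within the 4 classes; points are limma estimates from 3 and 3 arrays and bars are 95% intervals. Only the bars of Col12a1 and Serpinh1 leave out 0, and neither passed the adjusted test.

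Most collagen genes shared their high and low arrays, and the low arrays were split between the genotypes. Of the 29 members above background in all 6 arrays, 20 were highest in Msi1-null replicate 1. Msi1-null replicates 2 and 3 were the highest array for 2 each, wild-type replicate 2 for 4 and wild-type replicate 1 for 1. The lowest array was wild-type replicate 1 for 14 of them and Msi1-null replicate 2 for 11. The median deviation of the 35 genes from their means over the 6 arrays was -0.23, 0.06 and -0.02 (log2) in wild-type replicates 1 to 3, and 0.32, -0.27 and 0.10 in the Msi1-null replicates. Each genotype thus held 1 array with low collagen values, and the highest and the lowest median were both in the Msi1-null group. Of the other members, Col10a1 and Col13a1 were above background in 5 arrays and Col11a1 and Col4a4 in 4. Col4a3 and Col17a1 were above it in none, so their values give no level.

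**Figure D2:**
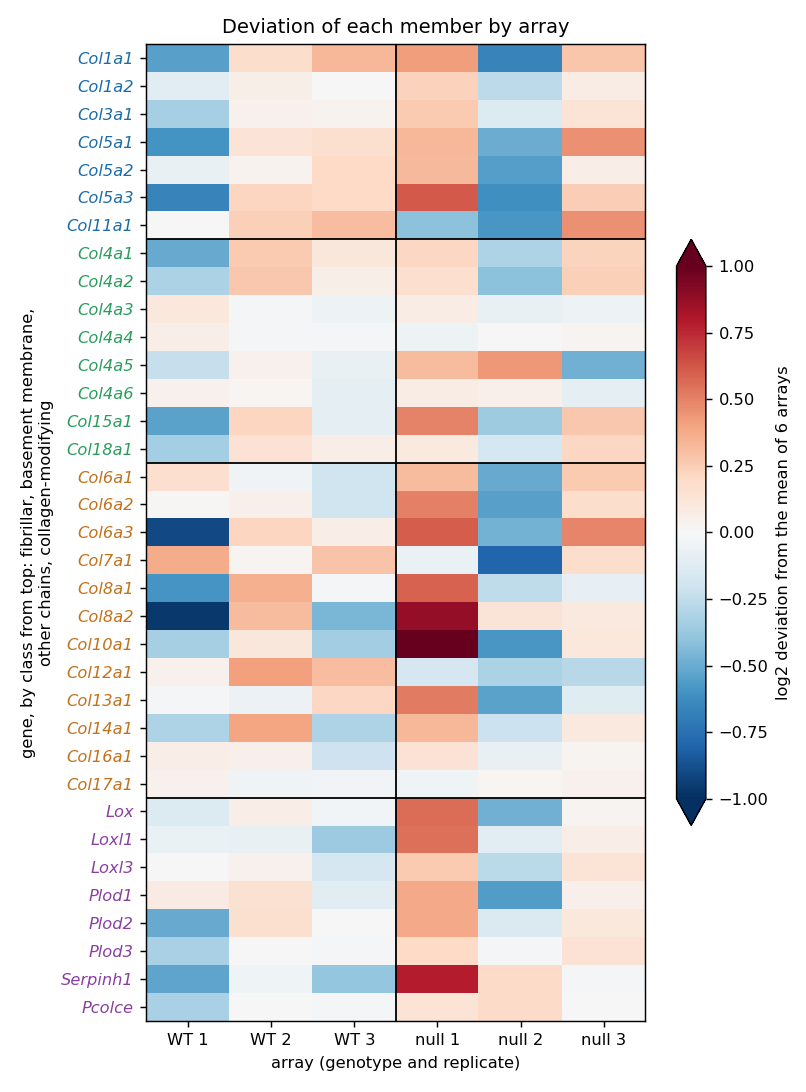
Deviation of each gene, in rows, from its mean over the 6 arrays, in columns, in log2 units; red is above and blue below the mean. Msi1-null replicate 1 is mostly above, with a median of 0.32, and wild-type replicate 1 and Msi1-null replicate 2 are mostly below, with medians of -0.23 and -0.27.

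The fibrillar chains had a median difference of 0.02, with 5 of 7 positive and a range from -0.36 to 0.20. Without wild-type replicate 1 only 1 of 7 was positive, and the median was -0.13. Col1a1, which supplies most of the chains of type I collagen, measured 3101, 5115 and 5705 in wild-type replicates 1 to 3 and 6048, 2848 and 5488 in the Msi1-null replicates. The lowest and the highest of these values were both Msi1-null, and the group means of 4640.0 ± 1365 and 4795 ± 1709 (SD, n = 3 each) differed by 0.02 ± 0.33 (SE). The interval of that difference, -0.74 to 0.79, is wide. A second Col1a1 probe set gave 0.22 ± 0.39. Its lowest value, 2014, was in wild-type replicate 1 and its highest, 5791, in Msi1-null replicate 1. Col1a2, the partner of Col1a1, measured 13283, 14899 and 14329 in the wild-type arrays and 16741, 11888 and 15003 in the Msi1-null arrays. As in the first Col1a1 probe set, the Msi1-null values bracketed the wild-type ones, at a difference of 0.02 ± 0.12. A second, less bright Col1a2 probe set gave -0.02 ± 0.26, a wider error, and a dim one gave -0.15.

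Col3a1, the chain of type III collagen, measured 10172, 13168 and 13138 in wild-type and 15335, 11619.5 and 14078 in Msi1-null arrays. The groups overlapped at a difference of 0.17 ± 0.13. A second, less bright Col3a1 probe set gave 0.31 ± 0.34, also with overlap. The type V chains Col5a1 and Col5a2 belong to a collagen that helps to start type I fibrils. Col5a1 measured 1602, 2672 and 2719 in wild-type and 3066, 1725 and 3343 in Msi1-null arrays, a difference of 0.20 ± 0.30. Col5a2 measured 5379.86, 5784 and 6485 against 7077, 3849.54 and 5929.76, a difference of -0.11 ± 0.21. For both chains wild-type replicate 1 and Msi1-null replicate 2 were the low arrays of their groups, and the groups overlapped. Col5a3 was the third type V chain, with a difference of 0.16 ± 0.35. Col11a1, a type XI chain whose level was near background, measured 232, 275 and 289 in wild-type and 176, 155 and 319.94 in Msi1-null arrays. Its difference of -0.36 ± 0.25 came with overlapping groups, and Msi1-null replicates 1 and 2 were below the array background. A second Col11a1 probe set gave -0.62 (interval -1.19 to -0.05), with a limma unadjusted p of 0.036 and an adjusted p of 0.9997. Its groups overlapped too, and it was above background in 4 arrays.

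**Figure D3:**
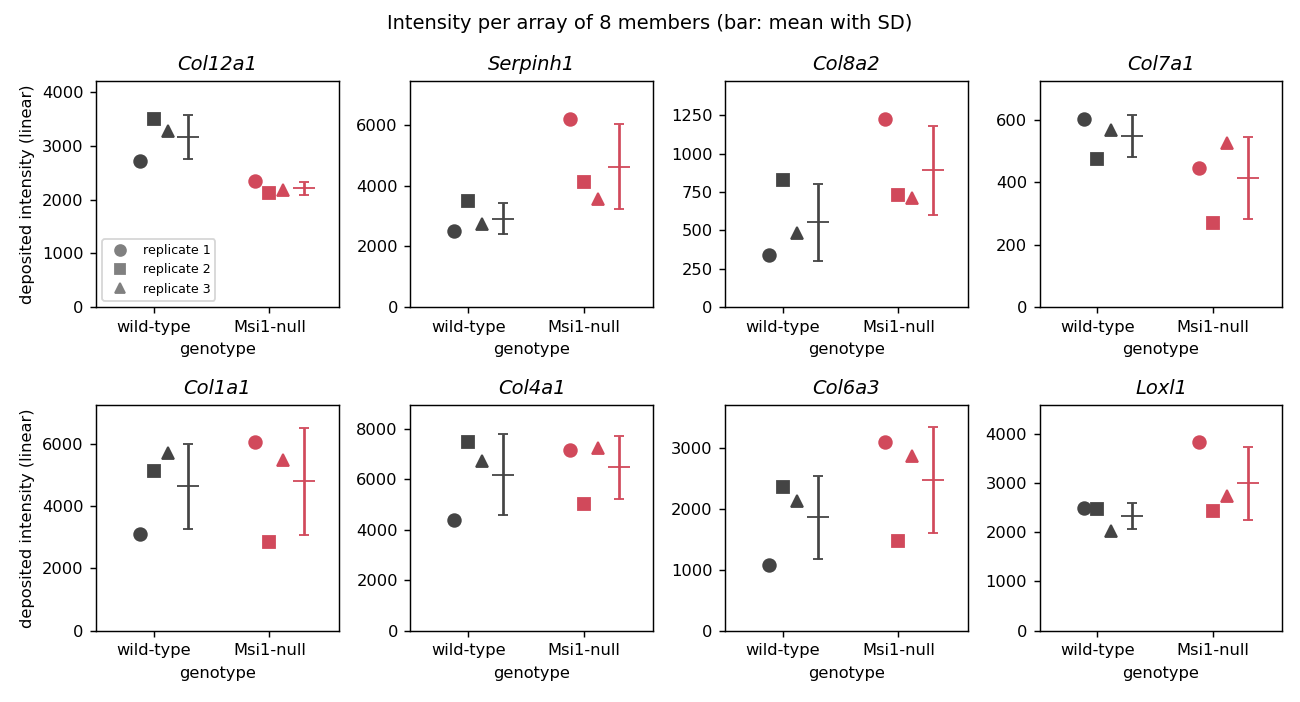
Linear intensity of 8 genes in every array, with wild-type arrays at left and Msi1-null arrays at right in each panel; points are arrays, with the marker shape giving the replicate, and bars are the group mean with its SD (n = 3). Col12a1 and Serpinh1 are without overlap between the groups, and the other genes shown overlap.

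The basement membrane chains had a median difference of 0.05, with 5 of 8 positive and a range from -0.03 to 0.27. Col4a1 and Col4a2 encode the chains of the most widespread type IV collagen and are known to lie head to head, transcribed in opposite directions from a shared promoter region. Their promoter windows in RefSeq (GRCm38.p6, 250 bases before to 50 after the annotated start) are shown for this arrangement. The capitals mark 78 bases that both windows hold, each on its own strand, at chr8:11312777-11312854. The Col4a1 window is chr8:11312777-11313076 on the minus strand and the Col4a2 window chr8:11312555-11312854 on the plus strand.
Col4a1: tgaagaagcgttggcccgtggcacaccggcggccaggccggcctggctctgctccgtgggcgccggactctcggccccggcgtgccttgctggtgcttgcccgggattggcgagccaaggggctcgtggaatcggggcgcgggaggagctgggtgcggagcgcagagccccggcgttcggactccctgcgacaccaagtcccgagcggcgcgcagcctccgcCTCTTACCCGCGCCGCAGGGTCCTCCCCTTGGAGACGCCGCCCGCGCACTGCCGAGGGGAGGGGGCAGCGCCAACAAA
Col4a2: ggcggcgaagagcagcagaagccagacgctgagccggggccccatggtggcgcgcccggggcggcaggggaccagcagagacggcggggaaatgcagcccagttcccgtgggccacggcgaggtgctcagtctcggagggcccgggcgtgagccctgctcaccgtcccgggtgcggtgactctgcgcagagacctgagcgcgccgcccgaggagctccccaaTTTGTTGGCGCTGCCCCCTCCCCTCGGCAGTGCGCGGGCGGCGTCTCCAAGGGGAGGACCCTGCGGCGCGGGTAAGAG

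Col4a1 measured 4378, 7455 and 6718 in wild-type and 7159.84, 5019 and 7226 in Msi1-null arrays, a difference of 0.08 ± 0.22. Col4a2 measured 3756, 5664 and 4879.78 against 5255, 3525 and 5522, a difference of -0.01 ± 0.21. In both chains wild-type replicate 1 and Msi1-null replicate 2 were the lowest arrays. Over the 6 arrays Col4a1 spanned 0.77 and Col4a2 0.68 log2 units, whereas their log2 ratio spanned 0.29. The ratio differed between genotypes by 0.09 (exact permutation test, two-sided p = 0.5, n = 3 each). A narrow ratio was not particular to this pair. Col6a1 and Col6a2 spanned 0.82 and 1.04 log2 units and their ratio 0.34, while the ratios of the remaining pairs examined spanned 0.77 to 1.36. These spans rest on the brightest probe set of each gene, and ratios with other probe sets were not computed. Whether the shared promoter region plays a part was not tested.

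Col18a1, whose product carries the endostatin fragment, measured 1797, 2509 and 2372 in wild-type and 2433, 2003 and 2616 in Msi1-null arrays, a difference of 0.08 ± 0.16. Col15a1, its close relative in the zone next to basement membranes, measured 514, 865 and 699 against 1048, 581 and 897, the largest positive difference of the class at 0.27 ± 0.26. Both genes overlapped between the groups. Col4a5, an X-linked type IV chain, measured 523, 632 and 582 in wild-type and 767, 829 and 439.64 in Msi1-null arrays. The groups overlapped at a difference of 0.18 ± 0.24. Its lowest array was Msi1-null replicate 3, as for Col4a6 and for a second Col4a5 probe set, which gave 0.14. Its neighbour Col4a6 lay between 306 and 344 in every array, at 0.02 ± 0.09. Col4a3 and Col4a4, at -0.03 and -0.02, were at or near background.

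Among the 12 other chains 9 differences were positive, and the median was 0.08 (range -0.51 to 0.74). Col12a1, a fibril-associated collagen with interrupted triple helices that coats type I fibrils, measured 2726, 3511 and 3273 in wild-type and 2356, 2121 and 2177 in Msi1-null arrays. Every Msi1-null array lay below every wild-type array. The means were 3170.1 ± 403 and 2218 ± 123 (SD, n = 3 each), and the difference was -0.51 ± 0.12 (interval -0.79 to -0.23). By limma its unadjusted p was 0.0033 and its adjusted p 0.9997. A second Col12a1 probe set measured 511, 576 and 526 against 393, 356 and 382, again without overlap and at -0.51, while the remaining pair of dim Col12a1 probe sets gave 0.05 and -0.05. With 1 array left out in turn, the difference of the first probe set lay between -0.61 and -0.43, and the mean of all its probe sets gave -0.25. Col14a1, a related fibril-associated chain, did not share this order: its difference was 0.15 ± 0.23.

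Col8a2 had the largest positive difference of all 35 genes. Type VIII collagen, built of Col8a1 and Col8a2 chains, is a short-chain network collagen of vessel walls and the cornea. Col8a2 measured 341, 829 and 486 in wild-type and 1228, 731 and 713 in Msi1-null arrays. The groups overlapped through wild-type replicate 2, and the difference of 0.74 ± 0.34 had an interval of -0.06 to 1.54. It was 0.44 without wild-type replicate 1, 1.08 without wild-type replicate 2 and 0.40 with array weights. Its partner Col8a1 measured 1899.56, 3665 and 2821 against 4317, 2408 and 2705, a difference of 0.17 ± 0.29. The log2 ratio of Col8a1 to Col8a2 was lower in each Msi1-null array than in each wild-type array, by 0.57 on average (null minus wild-type -0.57). Its exact two-sided permutation p of 0.1 is the smallest that 3 against 3 arrays allow, and the adjusted p over the 8 chain pairs examined was 0.8.

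Type VI collagen forms beaded filaments around cells from Col6a1, Col6a2 and Col6a3 chains. Col6a1 measured 2676, 2324 and 2071 in wild-type and 2971, 1677 and 2854 in Msi1-null arrays, and its difference was 0.05 ± 0.23. Col6a2 measured 2665, 2747 and 2299.69 against 3749, 1817 and 2986, with a difference of 0.09 ± 0.25. Col6a3 measured 1087, 2368 and 2136 against 3094, 1472 and 2862, with a difference of 0.41 ± 0.37. The Col6a3 difference was 0.066 without wild-type replicate 1 and 0.75 without Msi1-null replicate 2. All 3 chains overlapped between the groups. Wild-type replicate 1 was the lowest array for Col6a3 but the highest wild-type array for Col6a1, so that the log2 ratio of Col6a3 to Col6a1, centred on its mean, was -1.07 there and from 0.04 to 0.28 in the other arrays. Col7a1, the chain of the anchoring fibrils below squamous epithelia, measured 603, 474 and 569 in wild-type and 446, 269 and 526 in Msi1-null arrays. The groups overlapped through Msi1-null replicate 3, at a difference of -0.45 ± 0.24. Col10a1, the network collagen of hypertrophic cartilage, measured 469 in Msi1-null replicate 1 and between 151 and 245 in the other arrays, at 0.38 ± 0.37. The remaining chains of the class, Col13a1, Col16a1 and Col17a1, had differences of -0.09, 0.06 and 0.02.

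For the 8 chain pairs, 6 of them named by shared assembly and Col8a1 with Col8a2 and Col4a5 with Col4a6 added after the values were seen, no genotype difference in ratio passed. Apart from type VIII, the exact permutation p-values lay between 0.3 and 1, and the Benjamini-Hochberg values were 0.914 or 1. The ratio of Col1a1 to Col1a2 spanned 0.77 log2 units over the arrays, being lowest in wild-type replicate 1 and Msi1-null replicate 2, the arrays in which Col1a1 itself was low. This span rests on the brightest probe set of each gene. A second Col1a2 probe set measured 5682 in wild-type replicate 1, 4655 in Msi1-null replicate 2 and from 7900 to 9407 in the other arrays. That probe set was thus low in the same arrays as Col1a1, and the ratio with it was not computed. Col5a1 with Col5a2 gave a change in ratio of 0.31, and the pairs of type VI chains gave -0.04, 0.37 and 0.32.

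The collagen-modifying genes had the highest median of the 4 classes, 0.22, with 7 of 8 differences positive (range -0.09 to 0.64). Without Msi1-null replicate 1, 5 of 8 were positive. Serpinh1, the HSP47 chaperone gene, measured 2494, 3484 and 2749 in wild-type and 6204, 4107 and 3559 in Msi1-null arrays. Every Msi1-null array lay above every wild-type array, though Msi1-null replicate 3 was close to wild-type replicate 2. The means were 2909 ± 514 and 4624 ± 1396 (SD, n = 3 each) and the difference 0.64 ± 0.22 (interval 0.13 to 1.15). By limma the unadjusted p was 0.021 and the adjusted p 0.9997. The difference was 0.41 without Msi1-null replicate 1, the array in which most collagen genes were high, and 0.81 without Msi1-null replicate 3. Without wild-type replicate 1 (difference 0.54) or wild-type replicate 3 (0.61) its unadjusted p was no longer under 0.05. A second Serpinh1 probe set measured 2274, 3626 and 2249 against 5352, 3492 and 3349, and with a difference of 0.58 its groups overlapped.

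The Serpinh1 promoter window (RefSeq GRCm38.p6, chr7:99353190-99353489, minus strand) is shown as that of the modifying gene with the largest difference, with its single GGGCGG match in capitals.
Serpinh1: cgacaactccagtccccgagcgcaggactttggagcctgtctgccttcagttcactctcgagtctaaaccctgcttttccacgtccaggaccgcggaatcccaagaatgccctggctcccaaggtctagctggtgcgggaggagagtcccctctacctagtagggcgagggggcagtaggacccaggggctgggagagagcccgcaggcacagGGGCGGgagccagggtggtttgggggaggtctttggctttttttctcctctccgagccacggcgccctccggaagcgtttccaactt
Windows of this length, 28 in all, were used for 26 of the 36 genes, and none was found for Col12a1. Any member windows on a single chromosome were left out, while the set of all windows kept that chromosome. On either strand GGGCGG, the core of the GC box, was present in 64.3% of the 28 windows against 35.7% of all 32851 windows in the table. CCAAT was present in 39.3% against 37.4%, TATAAA in 17.9% against 13.6%, and GAANNTTC, a pair of inverted heat shock element units, in 7.14% against 7.86%. These matches describe the letters only. The Col4a1 and Col4a2 windows share 78 bases, and a GGGCGG site within them was counted for both windows.

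Lox, the founding lysyl oxidase, measured 2483, 2857 and 2687 in wild-type and 4023, 1959 and 2792 in Msi1-null arrays. The Msi1-null values lay on both sides of the wild-type ones, at 0.07 ± 0.24, and the other Lox probe sets gave -0.26 and -0.00. Loxl1, the oxidase best known for elastic fibres, measured 2489, 2479 and 2034 against 3820.35, 2424 and 2729. Only Msi1-null replicate 2 kept the groups of Loxl1 from separating, and the difference was 0.34 ± 0.18. A second Loxl1 probe set gave 0.07 ± 0.13, with Msi1-null replicate 2 its lowest array. Loxl3 differed by 0.08 ± 0.15. Among the lysyl hydroxylases, Plod2, which acts on the telopeptides that form stable cross-links, measured 323, 513 and 456 in wild-type and 596, 415 and 494 in Msi1-null arrays. Its groups overlapped at 0.23 ± 0.20. Plod3, which also glycosylates hydroxylysine, differed by 0.22 ± 0.13 and Plod1 by -0.09 ± 0.23. Pcolce differed by 0.22 ± 0.12.

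Genes of the same pathway outside these members were taken from fixed lists, and none passed the adjusted test. Of 22 measured genes of collagen biosynthesis, 13 were higher and 9 lower, with a median of 0.08 and none at an unadjusted p under 0.05. The 3 with the smallest p were P3h4 (0.29 ± 0.14) and P3h3 (0.29 ± 0.16), of the prolyl 3-hydroxylase family, and the procollagen-cleaving protease gene Tll1. Tll1 was above background in 1 array, wild-type replicate 1 at 236, and lay between 81.5 and 102 in the others, so its difference rests on that array. Of 15 further collagen chains 7 were higher and 8 lower, with a median of -0.01, and 5 of them were above background in all arrays. Groups did not overlap for 1 higher and 2 lower of these chains, where 8.28% of all genes were without overlap. Among the biosynthesis genes this held for 1 higher, P3h4, and 1 lower, Ppib. Proteoglycans and proteins that bind collagen fibrils were higher for 8 of 11, with a median of 0.11. Dpt, the gene of dermatopontin, led them at 0.65 ± 0.23 and was the only one of them with an unadjusted p under 0.05. Collagen receptors were higher for 3 of 8, with a median of -0.04, and other basement membrane proteins for 4 of 13, with a median of -0.12. The 3 of the last list with the smallest p were Agrn, the gene of agrin, at -0.34 ± 0.16, and the laminin genes Lama2 at -0.45 ± 0.30 and Lamb3 at -0.31 ± 0.23. Lama2 was highest at 733 in wild-type replicate 1, the other arrays ranging from 264 to 361. The other measured laminin genes went both ways. Lama4 (0.15), Lama1 (0.06) and Lamc1 (0.04) were positive, and Lama5 (-0.23), Lama3 (-0.15), Lamb1 (-0.12) and Lamb2 (-0.09) were negative.

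The samples are labelled tumour cells. All 10 epithelial, 11 fibroblast, 10 smooth muscle and pericyte, 9 endothelial and 8 macrophage markers were above background in every array. Of all 18193 genes, 10929 were above background in every array. The summed intensity of the smooth muscle and pericyte markers was 11099.5, 21376 and 15988 in the wild-type arrays and 26558, 12139 and 15489.9 in the Msi1-null arrays. These markers were thus lowest in wild-type replicate 1 and Msi1-null replicate 2 and highest in Msi1-null replicate 1, the same low and high arrays as for the collagen medians. Between genotypes 8 of 10 smooth muscle and pericyte markers were higher, with a median of 0.07. This order of arrays was not particular to that list. By median deviation the endothelial markers were lowest in wild-type replicate 1 (-0.27) and Msi1-null replicate 2 (-0.20). Their highest median was in Msi1-null replicate 1 (0.45).

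The fibroblast markers did not follow that order. Their sum was 30432, 23461 and 21365 in wild-type and 30692, 20760.3 and 21191 in Msi1-null arrays, so that wild-type replicate 1, low for collagens, was high for them, and 6 of 11 were higher in the Msi1-null group with a median of 0.01. Dcn, Lum and Dpt are in both this list and the fibril-binding list. The endothelial sum ran from 5879 to 7877 in wild-type and from 6499 to 9979 in Msi1-null arrays, with all 9 markers higher, a median of 0.27, and the highest array again Msi1-null replicate 1. The epithelial sum ran from 56849 to 65389 and from 53337 to 74492, with 3 of 10 higher. The macrophage sum ran from 27819 to 34710.4 and from 23674 to 42792, with 6 of 8 higher. The sum of the 8 measured acinar markers ran from 37854 to 58263 in wild-type and from 12575 to 35637 in Msi1-null arrays, with all 8 lower and a median of -1.58. Of these acinar markers 7 had an unadjusted p under 0.05 by limma, 2 were without overlap and none passed the adjusted test. Over all genes, 1.85% were lower and 1.61% higher at that unadjusted level, and 8.28% were without overlap. All 6 measured T, NK and B cell markers were higher in the Msi1-null group, with a median of 0.42, 3 at an unadjusted p under 0.05 and 2 without overlap. Of those 3, Cd2 and Klrd1 were above background in 1 array each and Cd3g in 4. All 6 markers were lowest in wild-type replicate 1, a low collagen array, and 5 were highest in Msi1-null replicate 2, the other low collagen array. Of the 6, 1 was above background in every array. Of the remaining lists, 3 of 4 neutrophil, 0 of 4 adipocyte, 2 of 5 mesothelial and 2 of 2 Schwann cell markers were higher, with medians of 0.10, -0.28, -0.10 and 0.03. The part of these cell types in the collagen values was not tested.

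**Figure D4:**
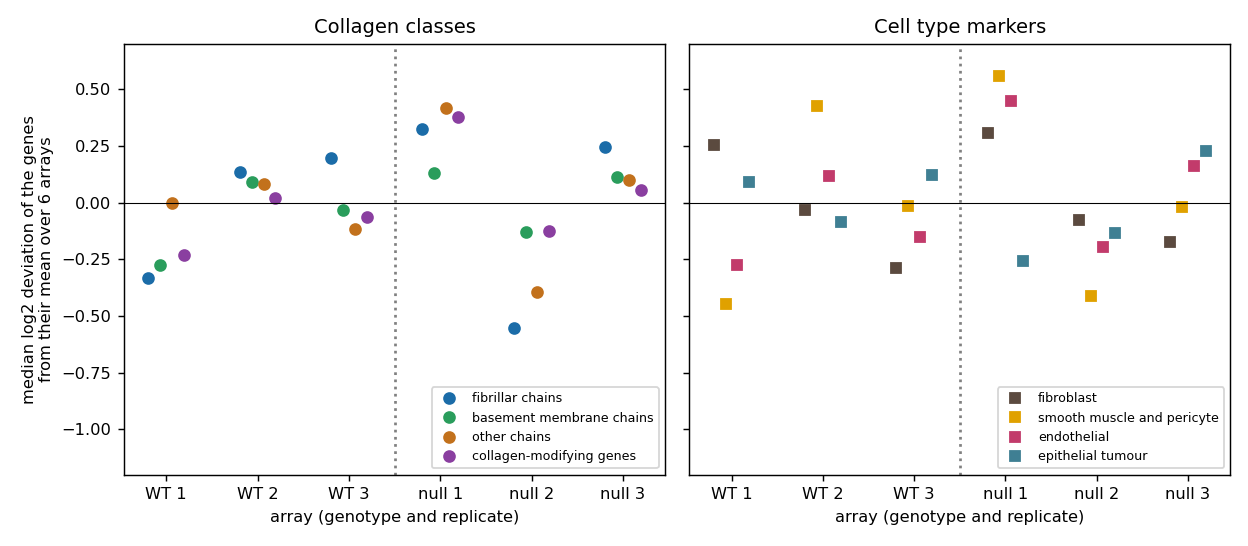
Median log2 deviation from the mean over 6 arrays for the 4 collagen classes at left and for 4 cell type marker lists at right, 1 point per list and array. In wild-type replicate 1 the fibrillar chains lie at -0.33 and the smooth muscle and pericyte markers are also low, while the fibroblast markers are above their mean.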

How the data were processed

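The authors deposited 1 table of linear intensity values for 45101 probe sets on 6 arrays. Per the labels' protocols, RNA was prepared with a Qiagen RNeasy kit and biotin-labelled from 6 ug, and per the submitters' processing notes the values were made with GCRMA, which corrects background by probe sequence, normalizes quantiles and summarises probes; no version or settings are given. Such normalization removes differences in total signal between arrays.

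From there, 64 control probe sets were left out, 1 was added to each intensity and log2 was taken. The 3 Msi1-null and 3 wild-type arrays were compared in R 4.3.3 by limma 3.58.1 with an intensity trend in eBayes, with Benjamini-Hochberg adjustment over 45037 probe sets and a threshold of 0.05; the fit was tested on simulated data. Intensities are comparable between arrays for a probe set, not between genes. Of the probe sets 34945 carry 1 symbol in the platform annotation, 932 several and 9160 were not listed; 34741 were matched by Entrez ID to RefSeq (GRCm38.p6). Ratios of chains were tested over the 20 assignments of arrays. Values per array are given for the 3 members of highest mean and the 3 of largest difference in each class and for assembling chains, with others named from lists by smallest p. Members and lists were chosen with earlier results of these data known. Alternatives were the trend, a filter at log2 7, quantile normalization, median centring, a pseudocount of 16, array weights, a replicate block, the mean of all probe sets and each array left out.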

Additional observations from a re-analysis of the deposited data

How the results depend on the processing

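The count of probe sets at an adjusted p under 0.05 was 0 with each alternative except the one without Msi1-null replicate 1, which called 1 (Ighm, an immunoglobulin gene, adjusted p = 0.0426 by limma); over the arrays left out the count ran from 0 to 1. No member passed in any alternative. Array weights turned the sign of Col1a1 (-0.21), Col1a2 (-0.053), Col5a3 (-0.12), Col4a1 (-0.072), Col4a4 (0.0089), Col6a2 (-0.0049), Col8a1 (-0.12) and Lox (-0.10), and the mean of all probe sets that of Col1a2 (-0.049), Col4a4 (0.0092) and Lox (-0.066); the cause was not tested. With array weights 20 members were higher and 15 lower. With 1 array left out, 21 members changed sign: Col1a1 (-0.25 to 0.36), Col1a2 (-0.084 to 0.16), Col5a1 (-0.049 to 0.50), Col5a2 (-0.30 to 0.14), Col5a3 (-0.13 to 0.51), Col4a1 (-0.15 to 0.25), Col4a2 (-0.17 to 0.20), Col4a3 (-0.076 to 0.017), Col4a4 (-0.038 to 0.008), Col4a6 (-0.018 to 0.071), Col18a1 (-0.062 to 0.20), Col6a1 (-0.100 to 0.31), Col6a2 (-0.14 to 0.38), Col8a1 (-0.080 to 0.39), Col10a1 (-0.049 to 0.76), Col13a1 (-0.37 to 0.16), Col16a1 (-0.027 to 0.11), Col17a1 (-0.001 to 0.041), Lox (-0.19 to 0.33), Loxl3 (-0.024 to 0.24), Plod1 (-0.30 to 0.17). Col12a1, Serpinh1 and 12 other members kept their sign throughout, and of 488 member values under alternatives 443 had the sign reported. The class medians ran with 1 array left out from -0.01 to 0.25 for all members, -0.13 to 0.28 for fibrillar chains, -0.0027 to 0.15 for basement membrane chains, -0.06 to 0.30 for other chains and 0.11 to 0.31 for modifying genes. With the replicate block 0 probe sets were called and the member median was 0.08. At an unadjusted p under 0.05 it had 2120 probe sets, against 1355 in the main fit. Same-numbered arrays deviated with correlations of 0.17, -0.09 and 0.28, and arrays of unlike number with -0.26 to 0.06. For 2 of 3 wild-type arrays the best correlation was with their own number. These values do not settle whether the numbers pair the samples. Values near background (Col4a3, Col4a4, Col17a1, Col11a1, Col10a1, Col13a1) limit what those genes show.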

Other observations

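In wild-type replicate 3, the array with the female pattern, the X-linked chains Col4a5 and Col4a6 measured 582 and 307, within the range of the other wild-type arrays for Col4a5 and below them for Col4a6. In the Msi1-null arrays Xist lay between 131 and 186 and Eif2s3y between 716 and 876, the pattern of a male in each. Sex was thus not balanced between the genotypes, and the fit did not account for it.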
